A study of Mus musculus with 40 samples.

Results

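Gasdermins and the caspases and inflammasome proteins that act on them were followed across mouse B16F10 melanoma cells and tumours. The members were the 8 genes Gsdmc, Gsdmd, Gsdma, Casp1, Casp4, Casp8, Nlrp3 and Pycard, each read through every probe set that named it alone. Of these, 7 genes had such a probe set, out of 17097 genes named on the array, with 9 probe sets in all out of 45141, with 3 for Pycard and 1 for each other gene. Gsdmd is not analysed here. Gsdmc was chosen by its low values in OTX015-treated cells, so its values in that contrast are given as a description without a test.

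B16F10 is a melanoma line of the C57BL/6 mouse. OTX015 inhibits BET proteins, which bind acetylated histones, and guadecitabine inhibits DNA methylation. The 40 arrays comprised 4 untreated and 4 OTX015-treated B16F10 cultures. In the OTX015 experiment there were 11 control tumours and 10 tumours of mice given the drug by mouth. The guadecitabine experiment held 5 control tumours and 6 tumours of mice given the drug by intraperitoneal injection. All tumours came from B16F10 cells placed under the skin of C57black6J mice aged 8 weeks, and the labels give no dose, duration or sex. The labels do not say that replicates were separate cultures or animals, so the p-values measure only the spread between these samples, which may be technical.

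Gasdermins are proteins whose released amino-terminal part opens pores in the cell membrane, which leads to the lytic death called pyroptosis. In the canonical inflammasome a sensor such as Nlrp3 joins the adaptor ASC, encoded by Pycard, to caspase-1, which cleaves gasdermin D and matures interleukin-1β and interleukin-18. Mouse caspase-4, also called caspase-11, senses intracellular lipopolysaccharide, and caspase-8, the initiator of death-receptor apoptosis, can cleave gasdermin C.

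RefSeq promoter windows of build GRCm38.p6 were found for 5 of the 8 members: Casp1, Casp4, Casp8, Nlrp3 and Pycard. The windows of Pycard, Casp8 and Casp4 are shown because these 3 members fell in OTX015-treated cells. Each is the 250 bases before the annotated start, written 5′ to 3′ on the strand of the gene, with motif matches in capitals. Pycard lies on the minus strand at chr7:127993868-127994117, Casp8 on the plus strand at chr1:58802252-58802501 and Casp4 on the plus strand at chr9:5308599-5308848.
Pycard: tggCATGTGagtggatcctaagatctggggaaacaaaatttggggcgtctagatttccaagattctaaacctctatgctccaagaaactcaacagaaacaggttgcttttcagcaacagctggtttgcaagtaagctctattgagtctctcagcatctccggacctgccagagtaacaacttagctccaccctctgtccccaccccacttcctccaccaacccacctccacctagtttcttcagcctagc
Casp8: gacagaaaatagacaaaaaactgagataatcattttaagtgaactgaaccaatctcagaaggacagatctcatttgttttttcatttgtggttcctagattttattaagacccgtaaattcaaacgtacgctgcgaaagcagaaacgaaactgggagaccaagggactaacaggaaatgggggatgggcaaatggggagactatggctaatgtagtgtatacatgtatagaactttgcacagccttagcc
Casp4: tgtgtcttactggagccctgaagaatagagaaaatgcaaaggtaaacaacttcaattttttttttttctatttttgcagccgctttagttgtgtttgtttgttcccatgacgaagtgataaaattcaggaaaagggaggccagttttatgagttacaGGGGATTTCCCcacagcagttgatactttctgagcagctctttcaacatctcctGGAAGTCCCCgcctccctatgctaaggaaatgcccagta
Both strands were searched for 8 motifs: the GC box GGGCGG, the E-box CACGTG, the M-box core CATGTG, the interferon-stimulated element core, the gamma-activated site TTCNNNGAA, a strict NF-kB site, the TATA box TATAAA and the AP-1 site TGANTCA. The Pycard window held the M-box core, 247 to 242 bases before the start, a match present in 12.3% of 32851 windows of this length. The Casp1 window held the E-box, 137 to 132 bases before the start, found in 6.02% of windows. None of the 8 motifs matched in the Casp8 or Casp4 window. A wider NF-kB consensus was added after the Casp4 window had been read, so its matches there were chosen after the sequence was seen. It matched 3 times in the Casp4 window shown, as an overlapping pair 93 to 83 bases before the start and once at 39 to 30. Casp4 has another window, chr9:5308610-5308859, where the same matches lie 104 to 94 and 50 to 41 bases before the start. The wider consensus also matched once in 1 of the 2 Nlrp3 windows, 186 to 177 bases before the start, and is found in 7.25% of windows. These matches are letters in a window, not sites shown to be bound. The windows held 2 CpG in Pycard, 5 in Casp8, 3 in each Casp4 window, 1 in Casp1, and 3 and 4 in the Nlrp3 windows. The median over all windows was 6.

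All values are log2 expression values, and a difference of 1 is a 2-fold change. A level of 4.46, the 95th percentile of the means of 81 olfactory and vomeronasal receptor probe sets, served as the background. A probe set was called at an adjusted p under 0.05 by limma with Benjamini-Hochberg adjustment over all 45141 probe sets. The array means of the 10 OTX015-treated tumours were 4.35 to 4.39 and those of the other 30 arrays 4.55 to 4.64. The OTX015 tumour comparison and the tests of differences between effects were therefore made after quantile normalization. Melanocyte marker means lay between 10.55 and 11.45 on every array, while all 7 measured keratinocyte markers lay at or below background in the cultures. Of 14 macrophage markers, 13 lay at or below background in the cultures, and 13 lay above it in every tumour group. The labels mention no sorting of tumour cells. In such bulk samples, fewer cells of a type and less RNA per cell cannot be told apart.

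In cultured cells, OTX015 was accompanied by lower values of the executioner Gsdmc, the adaptor Pycard and the caspases Casp8 and Casp4. Casp1, Nlrp3 and Gsdma were not called. Among the 6 member genes tested, 3 were called, all lower, by 3 of 8 probe sets. Over all probe sets, 15.3% were called lower and 29.1% in either direction. By the brightest probe set of each gene, 6635 of 17097 genes were called, 3728 of them lower.

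Gsdmc read 8.38, 8.63, 8.72 and 8.82 in the untreated cultures and 3.28, 3.33, 4.39 and 4.42 in the treated ones. Every treated culture lay below the background and below every control. The difference was -4.78 ± 0.26 (SE, n = 4 and 4), and with the treated side set to the background Gsdmc was at least 18.1-fold lower. Gsdmc lies between Myc and Gsdmc2 in the order of protein-coding genes on chromosome 15.

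The adaptor Pycard read 6.74, 6.95, 7.01 and 7.16 in the untreated cultures and 3.80, 3.97, 4.03 and 4.39 in the treated ones. All 4 treated cultures lay below every control and below the background. By its bright probe set, 1417346_PM_at, Pycard fell by 2.92 ± 0.13 (SE; limma adjusted p = 6.19e-08), at least 5.68-fold when the treated side is set to the background. Its other probe sets, 1446926_PM_at and 1417347_PM_at, lay below background in all 8 cultures, with differences of 0.04 and -0.08. Averaging all 3 probe sets gave a Pycard difference of -0.99, which was still called.

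Casp8, the initiator caspase, read 8.07, 8.11, 8.12 and 8.26 in the untreated cultures and 6.90, 6.94, 7.10 and 7.12 in the treated ones. It stayed well above background in both groups without overlap. Casp8 fell by 1.13 ± 0.07 (SE), or 2.18-fold, with a limma adjusted p of 1.01e-06. Casp4 read 5.13, 5.18, 5.35 and 5.48 in the untreated cultures and 3.99, 4.16, 4.39 and 4.43 in the treated ones. All 4 treated values again lay below every control, and below the background. Casp4 fell by 1.04 ± 0.11 (SE; limma adjusted p = 3.72e-05), at least 1.77-fold. Treated values lay below every control in 15.6% of all probe sets.

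Casp1, which processes interleukin-1β, read 2.73 to 3.06 in untreated and 2.79 to 2.93 in treated cultures, below the background in all 8, so these values set no level. The sensor Nlrp3 read 4.66 to 4.89 in untreated and 4.71 to 4.87 in treated cultures, just above background. Its difference was 0.01, with a 95% interval from -0.16 to 0.17. Gsdma, a gasdermin known from skin, read 2.31 to 2.69 in all cultures and lay below background in all 40 arrays.

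**Figure D1:**
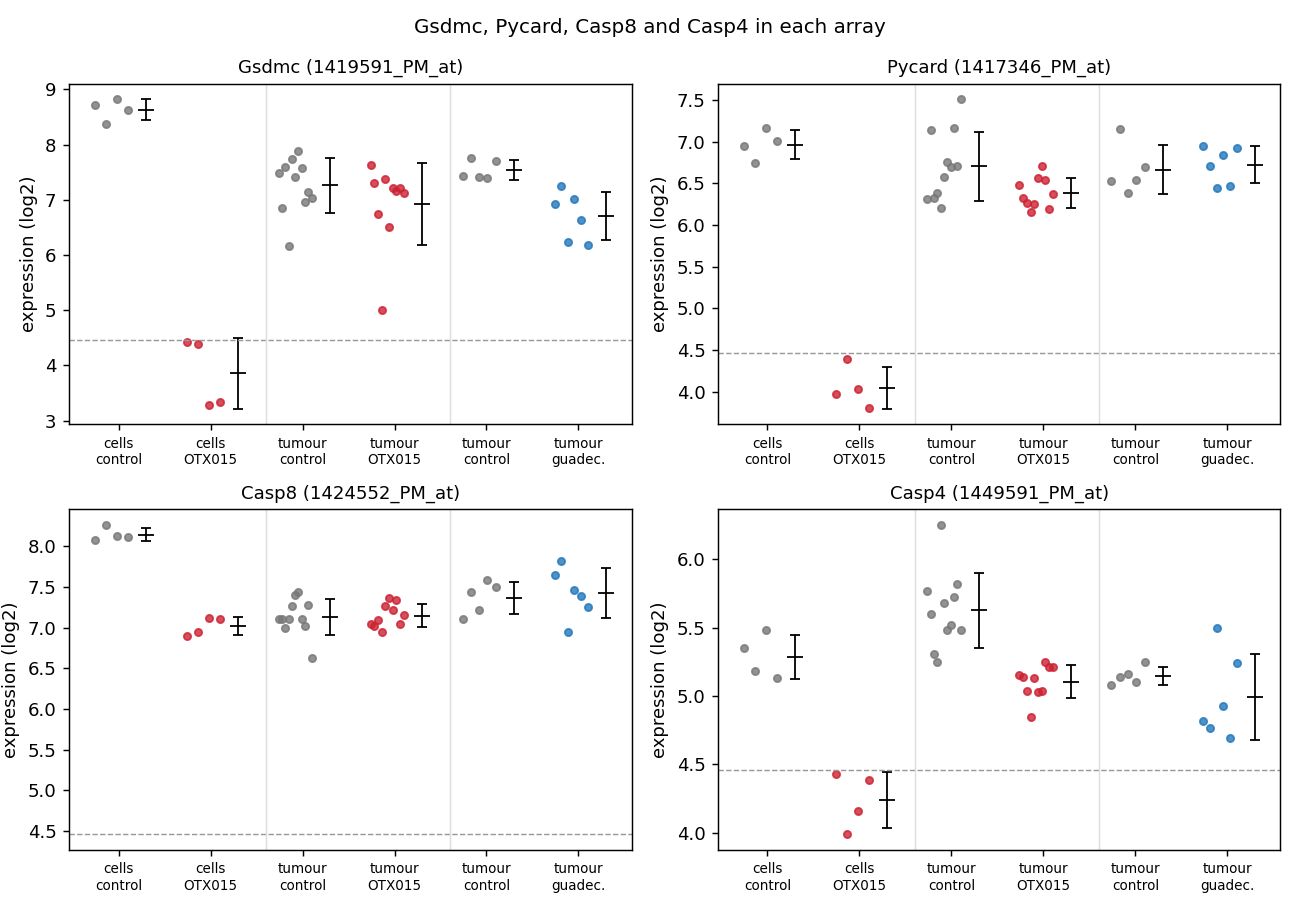
Log2 expression of Gsdmc, Pycard, Casp8 and Casp4 in every array, by group in the order of the 3 experiments. Points are arrays, the black bar is the group mean with its SD, and the dashed line is the background of 4.46. The 4 OTX015-treated cultures lie below the line for Gsdmc, Pycard and Casp4, while all tumour arrays lie above it.

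Other listed genes of the pathway moved in both directions in the treated cells. Of 8 measured caspase-8 partners and necroptosis genes, 2 fell and 1 rose. Mlkl, the necroptosis executioner, fell by 1.95 ± 0.06 (SE; limma adjusted p = 1.05e-08). Cflar, an inhibitor of caspase-8 and its neighbour on chromosome 1, fell by 0.76 ± 0.14 (limma adjusted p = 0.00208). The adaptor Tradd rose by 0.68 ± 0.07 (limma adjusted p = 3.93e-05).

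Of 7 measured inflammasome sensors and partners, 3 fell in the treated cells. The guanylate-binding protein genes Gbp2 and Gbp3 fell by 1.33 and 1.16, and Naip2, a sensor gene for bacterial secretion-system proteins, fell by 0.36. Gbp3 (means 4.11 and 2.95) and Naip2 (3.36 and 3.0) lay below background in both groups, so the sizes of their differences are not exact. Among 5 other caspases, Casp6 rose by 0.39 and Casp9 by 0.40. Of 4 products and pore effectors, Il18 fell by 0.47 and Ninj1, whose protein ruptures the membrane of dying cells, fell by 0.34. Of 3 other gasdermins measured, Gsdme fell by 0.28 (limma adjusted p = 0.047). The median differences of these lists were between -0.13 and 0.12, beside 0.01 over all probe sets.

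In tumours, OTX015 was accompanied by lower Casp4, while Gsdmc, Pycard and Casp8 were not called. Of the 7 member genes, Casp4 and Casp1 were called lower, by 2 of 9 probe sets. Over all probe sets, 8.07% were called lower, 8.6% higher and 16.7% in either direction. By the brightest probe set of each gene, 2763 of 17097 genes were called, 1281 of them lower. Casp1 lay near the threshold and below the background.

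Casp4 ranged from 5.25 to 6.25 with a median of 5.60 in the 11 control tumours, and from 4.85 to 5.25 with a median of 5.13 in the 10 treated tumours. All 10 treated tumours lay below every control, which held for 0.598% of all probe sets, while 1.47% did not overlap in either direction. Casp4 fell by 0.52 ± 0.09 (SE), or 1.43-fold, with a limma adjusted p of 0.00031. It was called under all 10 alternatives, with adjusted p from 6.72e-06 to 0.0033, and in 21 of 21 fits that left out 1 array.

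Casp1 ranged from 3.25 to 4.43 with a median of 3.52 in control tumours and from 3.03 to 3.69 with a median of 3.24 in treated ones. The ranges overlapped, with 6 of 10 treated tumours below every control. Casp1 fell by 0.35 ± 0.12 (SE; limma adjusted p = 0.0491), but all 21 arrays lay below the background, so no fold is given. The call was lost without any 1 of control tumours 2, 7, 8, 9, 10 and 11 or of treated tumours 1, 2, 3, 4, 5, 7, 8, 9 and 10. It held in 6 of 21 such fits, with adjusted p from 0.0264 to 0.0852. It was also lost with median centring (0.0568), array weights (0.0773) and the replicate block (0.0702).

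Gsdmc ranged from 6.17 to 7.89 with a median of 7.42 in control tumours and from 5.00 to 7.64 with a median of 7.19 in treated ones. The groups overlapped, with 1 of 10 treated tumours below every control. The difference was -0.33 ± 0.25 (SE), with a 95% interval from -0.86 to 0.19 and a limma adjusted p of 0.419. Without treated tumour 4, the lowest at 5.00, it was -0.12.

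Pycard ranged from 6.20 to 7.51 with a median of 6.70 in control tumours and from 6.16 to 6.71 with a median of 6.35 in treated ones. The difference of -0.32 ± 0.13 (SE) was not called (limma adjusted p = 0.109). Casp8 differed by 0.02 with a 95% interval from -0.15 to 0.18, and Nlrp3 by -0.10 with an interval from -0.32 to 0.12. On the deposited values without quantile normalization, 5 member genes were called lower: Casp1, Casp4, Gsdma, Nlrp3 and Pycard. On those values the median difference of all probe sets was -0.21, and 26259 were called lower and 576 higher, in place of 3645 and 3884.

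**Figure D2:**
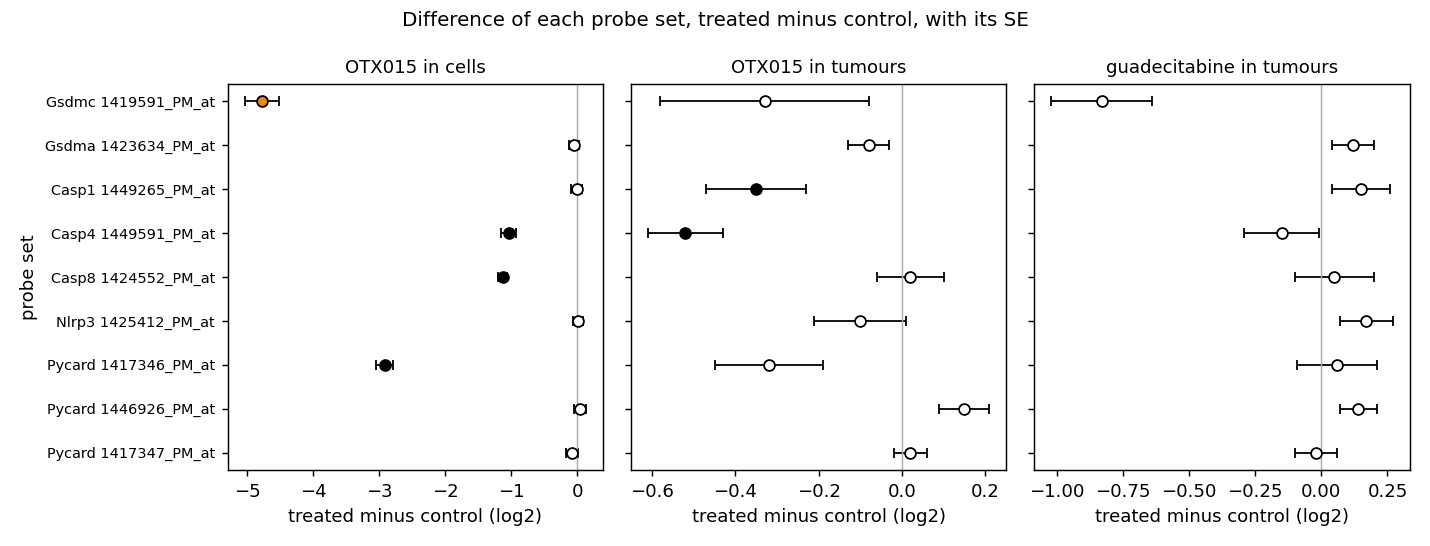
Log2 difference, treated minus control, of each of the 9 probe sets with its SE in the 3 drug comparisons; the horizontal scales differ. Filled points were called, open points were not, and the orange point is Gsdmc in cells, which was not tested. Pycard stands at -2.92 in cells and -0.32 in tumours, and Casp8 at -1.13 and 0.02.

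The OTX015 effect itself was compared between tumours and cells. Cell and tumour arrays were normalized together here, so the sizes need not equal the gaps between the separate fits. For Pycard the OTX015 effect was weaker in tumours by 2.24 ± 0.24 (SE; limma adjusted p = 2.18e-08), and for Casp8 by 1.16 ± 0.14 (limma adjusted p = 1.29e-07). These were the 2 genes called among 6 tested, by 2 of 8 probe sets. For tumours minus cells, 13.4% of all probe sets were called higher, 12.6% lower and 25.9% in either direction. By the brightest probe set of each gene, 5588 of 17097 genes were called. Pycard and Casp8 were called in all 29 fits that left out 1 array. The treated cultures lay below background for Pycard, so the size of its difference is not exact. The effects on Casp4 differed by 0.31 with a 95% interval from -0.04 to 0.66, which did not pass the test. For Gsdmc the effects differed by 4.19, given as a description. Among partners, the effect on Mlkl differed by 1.76 ± 0.24 (limma adjusted p = 1.24e-06) in the same direction as Casp8.

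Macrophage markers moved with the OTX015 tumour comparison. Of 14 markers, 9 were lower in treated tumours, with a median difference of -1.05, and none was higher. The marker mean ran from 5.82 to 7.75 in control tumours and from 4.55 to 6.41 in treated ones. Within the 11 control tumours, Pycard followed the marker mean with Pearson r = 0.931 (permutation p = 4e-05, adjusted 0.00056) and Spearman rho = 0.955 (permutation p = 5e-05, adjusted 0.0007). Without the 2 arrays farthest from the median, r was 0.892.

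Casp1 followed it in the same tumours with r = 0.864 (permutation p = 0.00021, adjusted 0.00147) and rho = 0.855 (permutation p = 0.00154, adjusted 0.0108). Its r was 0.841 without the 2 farthest arrays. As fitted, all 11 Casp1 values lay below the background, which limits what this relation measures. Casp4, the member called in every setting tried, gave r = -0.166 (permutation p = 0.639, adjusted 0.745) and rho = -0.109 (permutation p = 0.754, adjusted 0.81). In the 10 treated tumours Pycard gave r = -0.092 (permutation p = 0.807, adjusted 0.807) and rho = -0.188 (permutation p = 0.606, adjusted 0.707). No member passed there by r, and Gsdmc passed by rho alone, with rho = -0.794 (permutation p = 0.00915, adjusted 0.0427) and r = -0.586 (permutation p = 0.1, adjusted 0.351). Adjustment was over the 14 relations computed. The part of macrophage RNA in the Casp1 and Pycard differences was not tested.

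**Figure D3:**
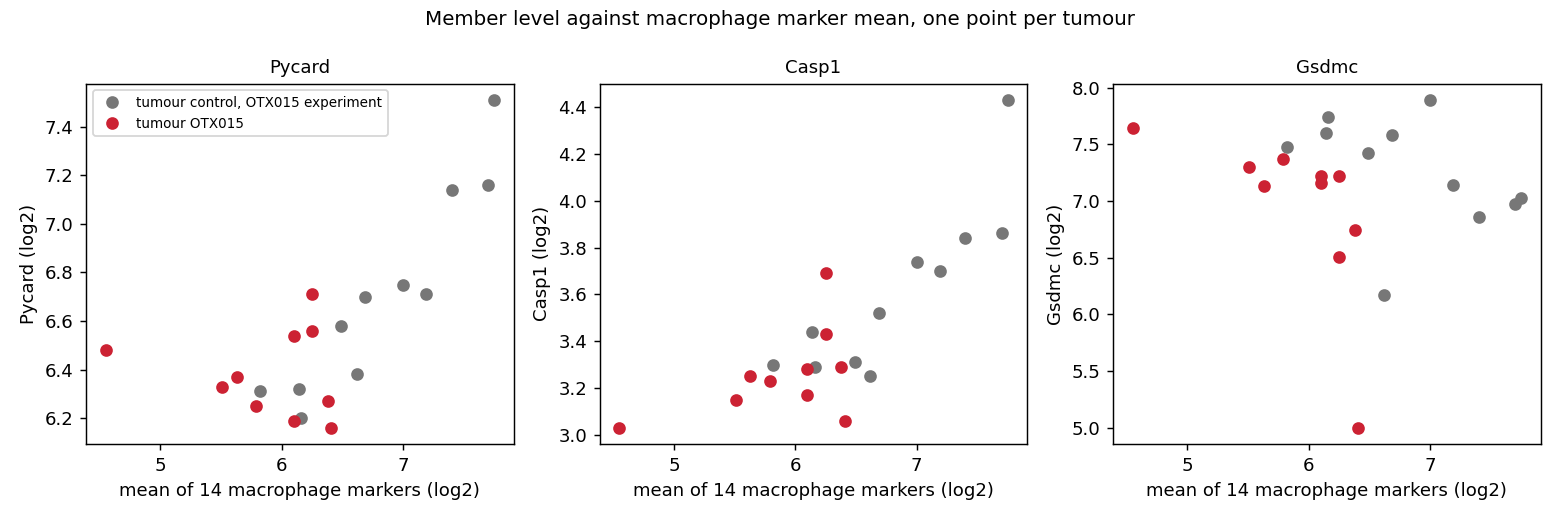
Log2 level of Pycard, Casp1 and Gsdmc against the mean log2 level of 14 macrophage markers, 1 point per tumour of the OTX015 experiment, controls in grey and treated in red. The marker mean and the members were both taken after quantile normalization of the 21 arrays of that experiment. Control tumours with higher marker means have higher Pycard and Casp1, and treated tumours reach at most 6.41 on the marker axis.

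Among the listed partners in OTX015-treated tumours, Gbp2 fell by 0.84 ± 0.14 (SE; limma adjusted p = 0.000265) and Zbp1, a nucleic acid sensor gene, fell by 0.39 (limma adjusted p = 0.00392). Nlrp6 fell by 0.17. Zbp1 (means 4.31 and 3.92) and Nlrp6 lay below background in both groups and Gbp2 did in the treated tumours (4.15), so these sizes are not exact. No other caspase, other gasdermin, or product and pore effector measured was called, including Il1b at -0.32 and Il18 at -0.14.

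With guadecitabine, no member was called. By limma 0 of 45141 probe sets passed (0.0% called), while 3079 had an unadjusted p under 0.05. Gsdmc read 7.39 to 7.76 in the 5 control tumours and 6.18 to 7.26 in the 6 treated ones. All 6 treated tumours lay below every control, as in 0.153% of all probe sets, while 0.605% did not overlap in either direction. The difference of -0.83 ± 0.19 (SE), or 1.78-fold, had a limma unadjusted p of 0.00114 and an adjusted p of 0.575. It ran from -0.94 to -0.73 when single arrays were left out.

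Casp4 read 5.08 to 5.25 in these control tumours and 4.69 to 5.50 in treated ones, a difference of -0.15 with a 95% interval from -0.45 to 0.15. Pycard differed by 0.06 (interval -0.26 to 0.38) and Casp8 by 0.05 (interval -0.27 to 0.38). Nlrp3 differed by 0.17 (interval -0.04 to 0.39). Tested directly, the effects of the 2 drugs in tumours differed for 0 of 7 member genes, beside 4.59% of all probe sets called, 2.4% higher and 2.19% lower. The nearest were Casp4 at -0.47 (limma adjusted p = 0.125) and Casp1 at -0.48 (limma adjusted p = 0.151), OTX015 minus guadecitabine. Both Gbp2 at -1.38 and Zbp1 at -0.68 were called in that test, Zbp1 with all 4 group means below background. On the scale of each experiment's own fit, Gbp2 averaged 4.15 in OTX015-treated and 4.43 in guadecitabine control tumours, both below background. The sizes of the Gbp2 and Zbp1 differences are therefore not exact.

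Among the 6 members other than Gsdmc, 2 differed between untreated tumours and untreated cultures. Over all probe sets, 40.3% were called, 18.1% higher and 22.2% lower. By the brightest probe set of each gene, 6970 of 17097 genes were called, 2154 higher and 4816 lower. Casp8 was lower in tumours by -0.84 ± 0.16 (SE; limma adjusted p = 0.000292). For Gsdmc the difference was -1.18 ± 0.26 (SE), given without a test because the untreated cultures took part in its choice. Casp1 was higher by 0.57 ± 0.17 (limma adjusted p = 0.0122), with every array but OTX015 control tumour 11 (4.61) below background, and was lost without untreated culture 2 (adjusted p = 0.0509). Nlrp3 at 0.27, Pycard at -0.24 and Casp4 at 0.16 were not called. These are averages over both control groups, whose own means follow. On the deposited scale Casp4 averaged 5.74 in OTX015 control tumours and 5.15 in guadecitabine control tumours, on either side of 5.29 in cultures. Nlrp3 averaged 5.30 and 4.75 in the same order, and 4.75 in cultures. All 14 macrophage markers were higher in tumours, with a median difference of 3.06, and their part in these differences was not tested. Il1b, a product of caspase-1 action, was higher by 1.44 ± 0.33 (limma adjusted p = 0.00175), while Gsdme was lower by -1.19 ± 0.10 (limma adjusted p = 1.44e-08). Il1b averaged 4.16 in the cultures and Gsdme 4.13 in the tumours, below background, so the sizes of both differences are not exact.

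**Figure D4:**
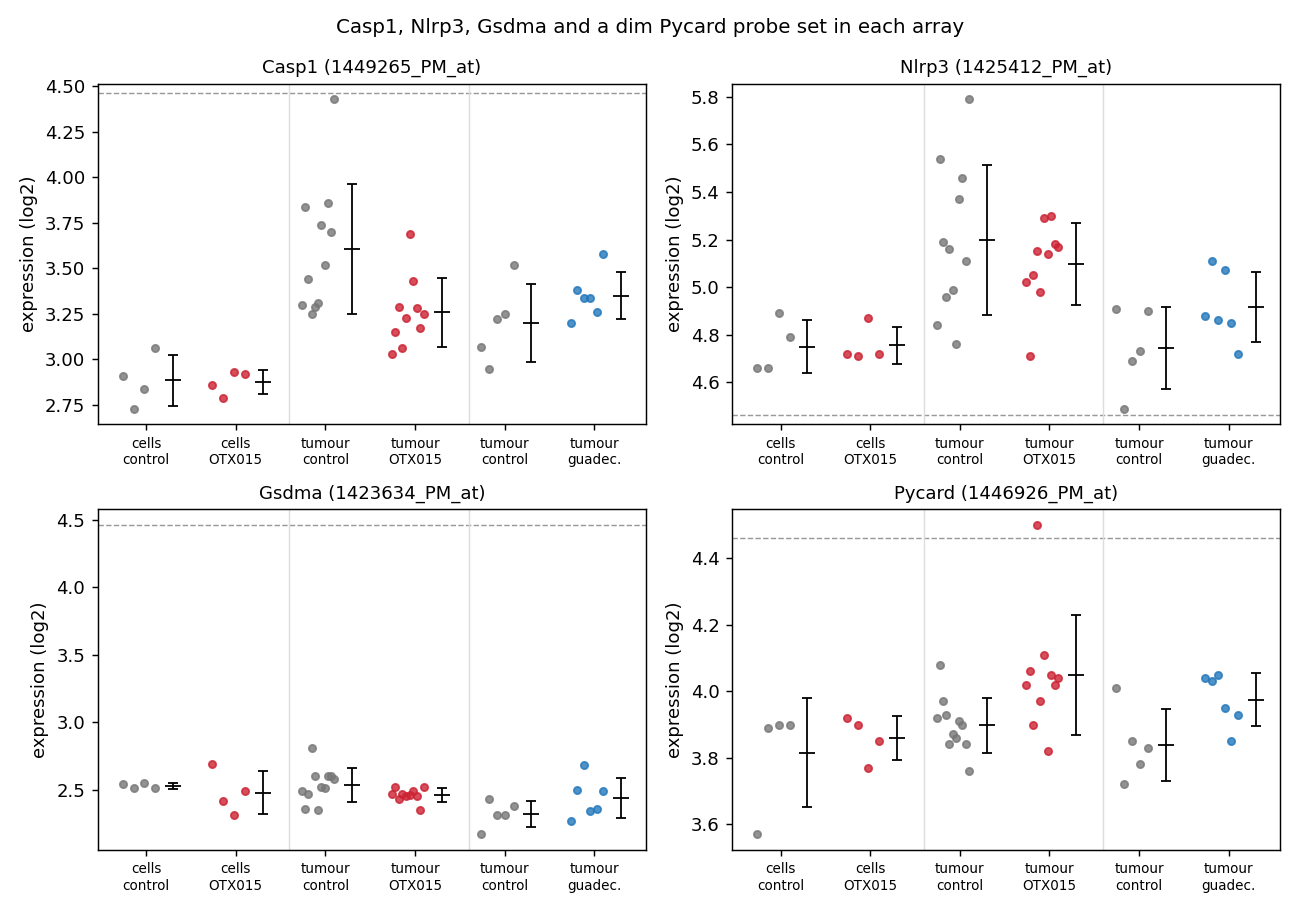
Log2 expression of Casp1, Nlrp3, Gsdma and the Pycard probe set 1446926_PM_at in every array by group, drawn as for the brighter members with the background of 4.46 dashed. On the scale of each experiment's own fit, which is plotted, Casp1 and Gsdma lie below the line in every array and Nlrp3 lies above it. With all 40 arrays normalized together, Casp1 reaches 4.51 in 1 OTX015 control tumour and Nlrp3 is at 4.35 in 1 guadecitabine control tumour.

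With all 40 arrays quantile normalized together, Gsdmc was highest in untreated cultures at 8.37 ± 0.21 (SD). Guadecitabine control tumours followed at 7.49 ± 0.21, OTX015 control tumours at 7.40 ± 0.48, OTX015-treated tumours at 7.07 ± 0.75 and guadecitabine-treated tumours at 6.68 ± 0.33. Neighbours among these 4 tumour groups overlapped. The untreated cultures, at 8.08 to 8.55, did not overlap with the next group, and the treated cultures stood apart at 3.87 ± 0.61. Casp8 was likewise highest in untreated cultures at 7.83 ± 0.08 and lowest in treated cultures at 6.70 ± 0.08, with the tumour groups between 7.27 and 7.41. Pycard lay between 6.54 and 6.85 in 5 groups and at 4.06 ± 0.23 in treated cultures. Casp4 was highest in OTX015 control tumours at 5.76 ± 0.28, without overlap with OTX015-treated tumours at 5.22 ± 0.12. The latter lay above untreated cultures at 5.10, guadecitabine control tumours at 5.01 and guadecitabine-treated tumours at 4.95, with overlap between neighbours. Treated cultures were lowest for Casp4 at 4.24.

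Over the 6 group means, each centred on its own mean, the genes most like Gsdmc among 9704 above background were Nr4a3, Prex2 and Smpdl3a. Their root mean square differences from it were 0.32, 0.42 and 0.449 log2 units. The gap between untreated and treated cultures that chose Gsdmc enters this measure, with treated cultures below background, so the ranking is a description of that gap as well. Those most like Nlrp3 were Flt3, Aloxe3 and Hcst, at 0.0416 to 0.0464.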

How the data were processed

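The deposited table holds log2 expression values of 40 samples on mouse Affymetrix arrays. Per the submitters' processing notes, the authors' tools were Transcriptome Analysis Console and RMA. Versions, and which arrays were processed together, are not given in the sources used here. Probe sets were named through the platform annotation, with symbols updated from RefSeq GRCm38.p6: 28898 named 1 gene, 551 several and 15692 none. Groups came from the labels. Each comparison was fitted over all probe sets with limma 3.58.1 in R 4.3.3 (lmFit, eBayes, two-sided), on deposited values for cells, guadecitabine, and untreated tumours against cells, and otherwise after quantile normalization of the fitted arrays. Every member probe set was named. From each other list up to 4 called genes per comparison could be named by smallest adjusted p, or 2 where none was called. For Gsdmc and Nlrp3 the 3 genes of most similar group means were named, and for Casp1, below background, they are left out. The members, lists and settings were chosen with earlier results of these data known. Correlations used 100000 permutations. One motif, the wider NF-kB consensus, was added after the promoter windows had been read. In simulated data 200 of 45141 probe sets, all above background, were changed, with noise drawn independently for each probe set. The fits recovered 86.6% of 2-fold changes for cells, 97% for OTX015 in tumours and 62.7% for guadecitabine. Recovery of 1.5-fold changes was 62.7% for cells, 88.1% for OTX015 in tumours and only 13.4% for guadecitabine. These rates do not cover probe sets below background. The real fits called more probe sets than were changed here, 13132 for cells and 7529 for OTX015 in tumours. Alternatives were other scalings, no dim probe sets, 1 value per gene, other variance models, array weights, the replicate block and each array left out. Arrays give no read depth, so their number limits the precision.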

Additional observations from a re-analysis of the deposited data

Results flagged for a closer look

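Of 45 groups of 4 to 10 arrays examined for the members, 5 held an array set apart from the rest by Dixon's criterion, where chance gives about 1 in 20. Gsdmc in OTX015-treated tumour 4 read 5.00, with the next at 6.51. The same tumour had the highest value of the Pycard probe set 1446926_PM_at, 4.50, with the next at 4.11. In untreated culture 1 that probe set read 3.57, with the next at 3.89. Nlrp3 in OTX015-treated culture 3 read 4.87, with the next at 4.72. The Pycard probe set 1417347_PM_at read 2.41 in OTX015-treated tumour 9, with the next at 2.58. Tumour 4 is 1 of 3 arrays with the lowest spread of values.

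For 2 members the OTX015 effect differed between tumours and cells by the test of the difference. It was weaker in tumours by 2.24 for Pycard (limma adjusted p = 2.18e-08) and by 1.16 for Casp8 (limma adjusted p = 1.29e-07). Pycard in treated cultures lay below background, so the size of its difference is not exact. Both genes fell in cells and did not pass the test in tumours.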

How the results depend on the processing

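In cells, the calls of Pycard, Casp8 and Casp4 held under all 9 alternatives and in all 8 fits without 1 array. In OTX015-treated tumours the 2 member genes called became 5 on the deposited values. The count was 1, Casp4 alone, with median centring, without dim probe sets, with array weights, with the replicate block and without the 3 arrays of lowest spread, the last chosen after seeing the data. Leaving out 1 array gave 1 to 2. Without treated tumour 7 it stayed at 2 because Casp1 was lost (limma adjusted p = 0.0506) and the dim Pycard probe set 1446926_PM_at was called higher (0.18, limma adjusted p = 0.048). In the test between drugs the deposited values gave 5 members in place of 0, beside 13699 of 45141 probe sets called in place of 2073. With array weights, Nlrp3 and Pycard were also called between untreated tumours and cells, beside 22192 of 45141 probe sets in place of 18202. Gsdmc is given without a test in that comparison. The cause was not tested.

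Direction turned only for values that were not called in the main fit. On the deposited values these were, for OTX015 in tumours, Casp8 (-0.21) and the dim Pycard probe sets (-0.11 and -0.14), of which the last was then called at a limma adjusted p of 0.00777. On the same values those probe sets gave -0.15 and -0.062 for tumours minus cells, and -0.24 and -0.12 between drugs, and the Pycard relation to macrophage markers in treated tumours was 0.00083 in place of -0.092. Casp8 in tumours was -0.01 with array weights, -0.034 with the replicate block and -0.029 without the low-spread arrays. Gsdma was 0.014 in tumours and 0.06 for tumours minus cells with median centring, and 0.04 for the latter with array weights. For untreated tumours against cells, Pycard was 0.12 and its dimmest probe set -0.046 with quantile normalization, and that probe set was -0.092 with median centring and -0.0018 with the replicate block. Between drugs the probe set 1446926_PM_at was -0.0013, -0.025 and -0.015 with median centring, array weights and the replicate block. With single arrays left out, these uncalled values crossed 0. In cells, Gsdma ran from -0.12 to 0.0073, Casp1 from -0.059 to 0.051, Nlrp3 from -0.033 to 0.055 and 1446926_PM_at from -0.039 to 0.072. In OTX015-treated tumours, Casp8 ran from -0.034 to 0.048. With guadecitabine, Casp8 ran from -0.028 to 0.15, Pycard from -0.0042 to 0.19 and 1417347_PM_at from -0.077 to 0.011. For untreated tumours against cells 1417347_PM_at ran from -0.05 to 0.086, for tumours minus cells Gsdma ran from -0.072 to 0.06, and between drugs 1446926_PM_at ran from -0.032 to 0.05.

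The replicate numbers do not pair the samples. Same-numbered arrays had deviations correlated between -0.09 and 0.25 in cells, -0.62 and 0.53 in OTX015 tumours, and -0.59 and -0.01 with guadecitabine. Over all probe sets, OTX015 in tumours gave 7529 calls, 26835 on deposited values, 1453 of 17286 without dim probe sets and 6415 with the replicate block. Guadecitabine gave 0, but 1281 with all 6 groups in 1 fit, 1 without treated tumour 4 or 6, and 2 with the mean of a gene's probe sets. Between drugs the 2073 calls became 13699 on deposited values, 3553 with array weights and 1208 with the replicate block. They became 1226, 1159 and 3756 without guadecitabine control tumours 2, 3 and 5. Without dim probe sets it gave 275 of 17657. Tested as 1 value per gene, 17097 in all, the brightest probe sets gave 6635 calls in cells in place of 13132, 2763 in OTX015-treated tumours, 6970 for untreated tumours against cells in place of 18202, 5588 for tumours minus cells in place of 11708, and 606 between drugs; the means of all probe sets gave 6521, 2722, 7081, 5613 and 634. Without dim probe sets, untreated tumours against cells gave 10551 and tumours minus cells 7462. Deposited values gave 18656 for tumours minus cells, 3258 higher and 15398 lower, in place of 6034 and 5674. Median centring gave 6653 higher and 3106 lower for OTX015 in tumours, and 5233 higher and 13257 lower for untreated tumours against cells in place of 8170 and 10032. Between drugs the split on deposited values was 550 higher and 13149 lower, in place of 1084 and 989. The sizes of differences between values under 4.46 are not firm.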
